A study of Homo sapiens with 4 samples.

Results

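The HOX clusters, the 4 arrays of homeobox genes that set position along the body axis, carry miRNA genes between their coding genes. The 9 mature miRNAs described here are the products of the MIR10, MIR196 and MIR615 hairpins, taken by name from a table of 2656 mature miRNAs: hsa-miR-10a-5p, hsa-miR-10a-3p, hsa-miR-10b-5p, hsa-miR-10b-3p, hsa-miR-196a-5p, hsa-miR-196b-5p, hsa-miR-196b-3p, hsa-miR-615-3p and hsa-miR-615-5p. They were chosen for where their genes lie, not for their values, although earlier results of these data were known. The small RNA libraries came from HEK293T, a human embryonic kidney line that carries the SV40 large T antigen, engineered with a landing pad, a genomic site that accepts a transgene. The pad carried either the PGK promoter, from the phosphoglycerate kinase gene, or the CAG promoter, which joins a cytomegalovirus enhancer to chicken beta-actin sequence; 2 libraries were made for PGK and 2 for CAG. All cells were kept in DMEM with serum and antibiotics, and the purpose was to find miRNAs that differ between the promoters' lines. The lines were monoclonal, with the number of clones not given in the sources used here, so promoter and clone cannot be told apart, and p-values measure only the spread between these 4 libraries, which may be technical.

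A miRNA hairpin is cut into 2 arms, named 5p and 3p. Usually the arm loaded into Argonaute, the guide, accumulates, and the other, the passenger, is mostly degraded. The guide finds its targets mainly through the seed, bases 2 to 8 from its 5′ end. HOX genes are transcribed in nested domains, and their miRNAs tend to follow the domain of the neighbouring genes; miR-196 directs cleavage of HOXB8 mRNA, and miR-10 and miR-196 have predicted or shown targets among other HOX genes.

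GENCODE release 29 (GRCh38) places the miR-10 hairpins, and likewise the miR-196 hairpins, in equivalent places of different clusters. MIR10A lies in HOXB (chromosome 17, 48579838 to 48579947, minus strand), 1519 bases upstream of the HOXB4 coding span, within an intron of HOXB3 and an untranslated exon of a HOXB4 transcript. MIR10B lies in HOXD (chromosome 2, 176150303 to 176150412, plus strand), 1222 bases upstream of the HOXD4 coding span and in an intron of HOXD3. The miR-196 hairpins lie between the group 9 gene and the next coding gene upstream of it in their cluster. MIR196B sits in HOXA (chromosome 7, 27169480 to 27169563, minus strand), 4023 bases upstream of the HOXA9 coding span and 2339 bases from that of HOXA10, in an intron or non-coding exon of HOXA9 transcripts. MIR196A1 sits in HOXB (chromosome 17, 48632490 to 48632559, minus strand), 6221 bases upstream of HOXB9 and 94234 bases from HOXB13, in an intron of a HOXB7 transcript, and MIR196A2 sits in HOXC (chromosome 12, 53991738 to 53991847, plus strand), 8342 bases upstream of HOXC9 and 2295 bases from HOXC10, in an intron of a HOXC6 transcript. MIR615 (chromosome 12, 54033950 to 54034045, plus strand) lies in the intron of HOXC5. The deposited tables hold no coordinates, with a build not given in the sources used here. RefSeq (GRCh38.p14) gave the same positions for all 6 hairpins.

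**Figure D1:**
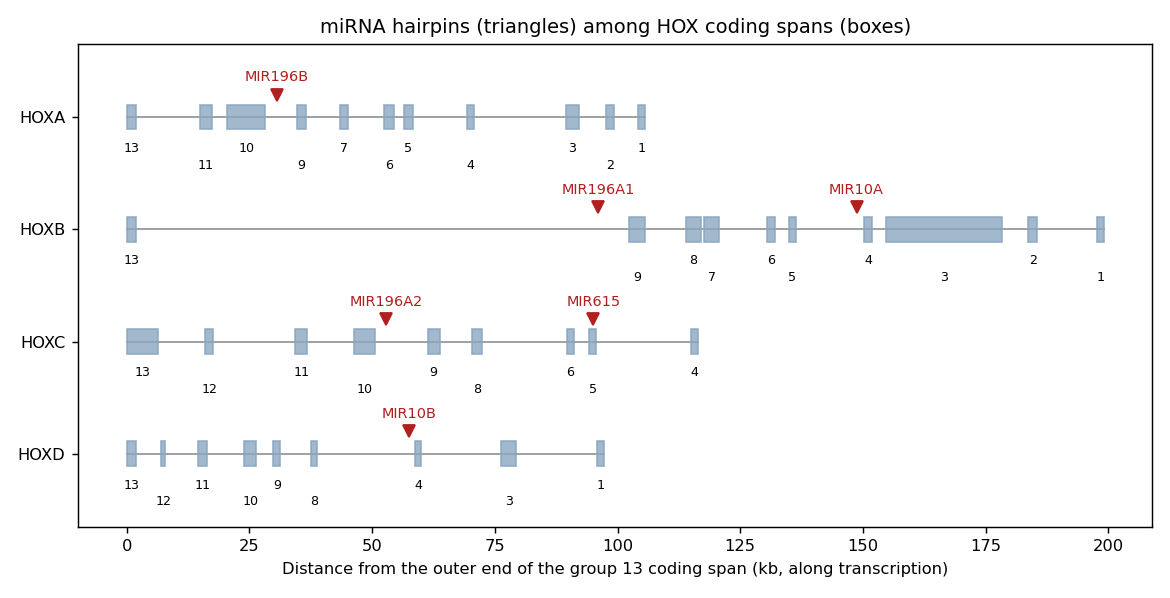
Position of the 6 miRNA hairpins (red triangles) among the HOX coding spans of GENCODE release 29 (blue boxes, numbered by gene), 1 row per cluster; the horizontal axis is the distance in kb along transcription from the outer end of the group 13 gene. MIR10A and MIR10B stand just before the group 4 genes, MIR196A2 and MIR196B stand between the group 10 and group 9 genes, MIR196A1 stands between HOXB13 and HOXB9, and MIR615 stands within HOXC5.

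RefSeq gave a mature sequence for 8 of the 9 miRNAs. They are printed 5′ to 3′ with the seed in capitals, because the seed decides which members share a target set and the remaining bases decide whether their reads can be told apart. The coordinates are GRCh38.p14.
miR-10a-5p (chr17:48579904-48579926, minus): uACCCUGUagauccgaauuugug
miR-10a-3p (chr17:48579864-48579885, minus): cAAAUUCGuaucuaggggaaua
miR-10b-3p (chr2:176150368-176150389, plus): aCAGAUUCgauucuaggggaau
miR-196a-5p (chr17:48632532-48632553, minus, and chr12:53991762-53991783, plus): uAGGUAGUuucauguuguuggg
miR-196b-5p (chr7:27169528-27169549, minus): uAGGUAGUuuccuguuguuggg
miR-196b-3p (chr7:27169493-27169514, minus): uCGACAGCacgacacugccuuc
miR-615-3p (chr12:54034010-54034031, plus): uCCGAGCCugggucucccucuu
miR-615-5p (chr12:54033967-54033988, plus): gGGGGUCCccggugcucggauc

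miR-196a-5p and miR-196b-5p share the seed AGGUAGU and differ by a single substitution outside it, A12C (miR-196a-5p base first, counted from the 5′ end). MIR196A1 and MIR196A2 yield the same miR-196a-5p, so its reads cannot be assigned to HOXB or HOXC. miR-10a-3p and miR-10b-3p are near copies, with 18 identical bases and 3 mismatches in an alignment shifted by 1 base. Their seeds, AAAUUCG and CAGAUUC, differ through the shift and a mismatch of A with G. The printed sequences of the 4 abundant guides, miR-10a-5p, miR-196a-5p, miR-196b-5p and miR-615-3p, all begin with U. The GC content of miR-615-3p (63.6%) and miR-615-5p (77.3%) was above that of the others, which ran from 36.4% to 59.1%.

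PGK replicate 1 held 7927615 counts, PGK replicate 2 held 7331437, CAG replicate 1 held 13780279 and CAG replicate 2 held 2845945, so CAG replicate 2 was the shallowest. A single read was worth 0.0777 to 0.324 CPM, the unit of level used here, in which counts are divided by library size and TMM factor. Of the marker lists of other tissues, blood miRNAs summed to 0.932 to 2.27 CPM, with 1 of 5 at 0 in all libraries, and pluripotency miRNAs to 0.125 to 0.388 CPM, with 3 of 4 at 0. miR-122-5p of liver stood at 0 to 2.65 CPM. All 4 kidney epithelium markers had reads in each library, summing to 6173 to 6619 CPM for PGK and 3142 to 3608 CPM for CAG. The sums were 96.1 to 106 CPM (PGK) and 15.6 to 16.8 CPM (CAG) for muscle (1 of 3 markers with reads in each library), 3891 to 4089 and 1767 to 2060 CPM for neural (1 of 2), 1534 to 1733 and 1083 to 1220 CPM for the endothelial miR-126-3p, and 4.63 to 6.27 and 9.72 to 14.4 CPM for mesenchymal miRNAs (1 of 2). Their part in the differences between the groups given below was not tested. In bulk RNA, fewer cells with a miRNA and less of it per cell cannot be told apart.

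The share of the HOX cluster miRNAs among all miRNA counts was 11.2% in PGK replicate 1 and 10.4% in PGK replicate 2, and 12.8% and 13.4% in the CAG libraries. By cluster, the HOXB arms miR-10a-5p and miR-10a-3p held 67.6% to 69.7% of the members' counts and the HOXD arms of miR-10b held 22.1% to 23.7%. The HOXA arms of miR-196b held 3.77% to 4.09%, the HOXC arms of miR-615 held 2.46% to 3.63%, and miR-196a-5p, from HOXB or HOXC, held 1.06% to 2.17%. The miR-10 hairpins thus carried most of the reads and the miR-196 and miR-615 hairpins few. Ligation preference in library construction differs between sequences, so this order describes reads, not molecules. From high to low it ran miR-10a-5p, miR-10b-5p, miR-196b-5p, miR-615-3p, miR-196a-5p, miR-10a-3p, miR-10b-3p, miR-196b-3p and miR-615-5p in each library. The only neighbours whose ranges over the libraries overlapped were miR-196a-5p (1445 to 2311 CPM) and miR-10a-3p (1023 to 1502 CPM).

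**Figure D2:**
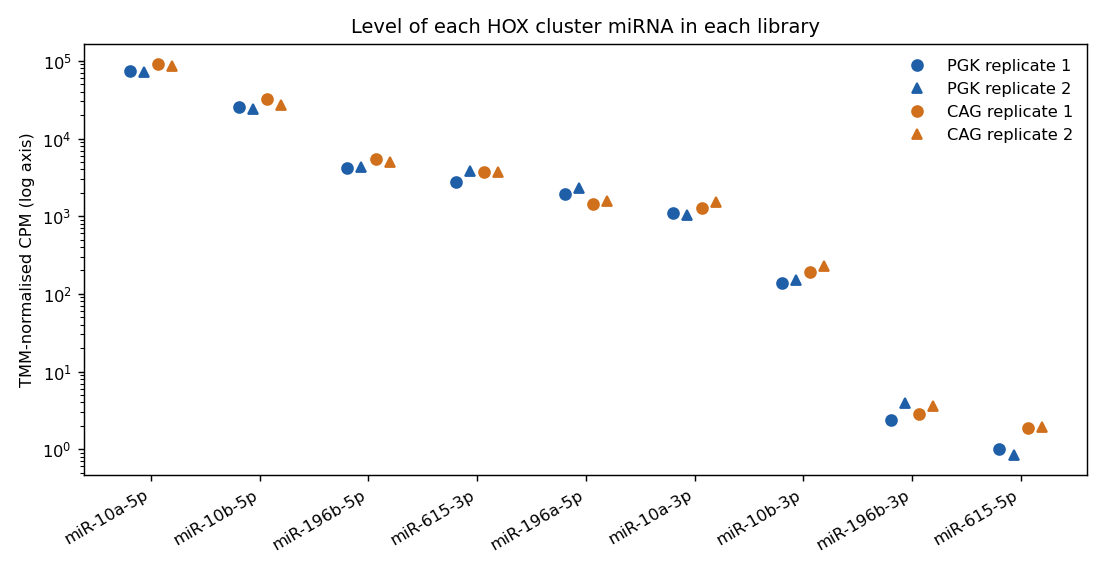
TMM-normalised CPM (log axis) of each HOX cluster miRNA in each of the 4 libraries; blue marks PGK, orange CAG, circles replicate 1 and triangles replicate 2. miR-10a-5p stands highest at 71061 to 92380 CPM and miR-615-5p lowest at 0.837 to 1.94 CPM, and the order is the same in all 4 libraries.

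miR-10a-5p, the HOXB guide, stood at 75179 and 71061 CPM in PGK replicates 1 and 2 and at 92380 and 84829 CPM in CAG replicates 1 and 2. Both CAG libraries were above both PGK libraries, and its rank among all miRNAs was 2 in CAG replicate 1 and 3 in the other libraries. The log2 fold change, CAG minus PGK, was 0.28 (SE 0.13; edgeR quasi-likelihood adjusted p = 0.209), which did not pass the threshold of 0.05. miR-10b-5p, its HOXD counterpart, stood at 25463 and 23860 CPM in PGK and at 32174 and 27168 CPM in CAG cells. Again the groups did not overlap, and the log2 fold change of 0.27 (SE 0.15; edgeR adjusted p = 0.275) did not pass.

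The passenger arms of both hairpins were also higher in the CAG libraries without passing the test. miR-10a-3p stood at 1090 and 1023 CPM in PGK and at 1273 and 1502 CPM in CAG replicates 1 and 2, a log2 fold change of 0.39 (SE 0.17; edgeR adjusted p = 0.173). miR-10b-3p stood at 138 and 149 CPM in PGK and at 190 and 231 CPM in CAG cells, a log2 fold change of 0.55 (SE 0.19; edgeR adjusted p = 0.0843). For both 3p arms CAG replicate 2 was the highest library, whereas CAG replicate 1 was the highest for both 5p arms.

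miR-196a-5p was the abundant member with lower values in the CAG libraries. It stood at 1919 and 2311 CPM in PGK replicates 1 and 2 and at 1445 and 1570 CPM in CAG replicates 1 and 2, with no overlap. The log2 fold change was −0.49 (SE 0.17; edgeR adjusted p = 0.0900). miR-196b-5p, which differs from it by the A12C substitution, stood at 4169 and 4360 CPM in PGK and at 5422 and 4954 CPM in CAG cells, on the other side, with a log2 fold change of 0.28 (SE 0.16; edgeR adjusted p = 0.267). Its passenger miR-196b-3p had 19, 28, 36 and 11 reads in PGK replicates 1 and 2 and CAG replicates 1 and 2. At this depth its groups overlapped, and the pooled ratio of CAG to PGK was 0.95 (95% exact binomial interval 0.620 to 1.45, which covers counting error only, since reads without molecular identifiers are not independent molecules).

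miR-615-3p, the guide of the HOXC5 intron, stood at 2721 and 3869 CPM in PGK and at 3693 and 3665 CPM in CAG cells. The PGK libraries enclosed both CAG libraries, and the log2 fold change of 0.16 (SE 0.19; edgeR adjusted p = 0.624) turned to −0.09 without PGK replicate 1, the lowest library. miR-615-5p had 8, 6, 24 and 6 reads in the same order of libraries. Its pooled ratio of CAG to PGK was 2.04 (95% exact binomial interval 1.05 to 4.15, which covers counting error only). The fitted log2 fold change of 1.02 (SE 0.54; edgeR adjusted p = 0.252) did not pass.

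Across the members, 0 of 9 were called at an edgeR adjusted p under 0.05, against 14.2% of the 773 tested miRNAs. DESeq2 and limma-voom also called 0, although DESeq2 gave no adjusted p for miR-615-5p. At an unadjusted p under 0.05 there were 3 of 9 members (miR-10a-3p, miR-10b-3p and miR-196a-5p), and 208 of 773 miRNAs (26.9%). The groups did not overlap for 7 of 9 members, against 57.2% of all tested miRNAs and 65.8% of the 222 that averaged 100 CPM or more. The members' median log2 fold change was 0.28, with 7 above and 2 below 0. Over all tested miRNAs the median was −0.0042, with 385 above and 388 below 0. Both arms of the miR-10a, miR-10b and miR-615 hairpins were among the members above 0, so the 2 arms of each are not separate genes. All 9 members passed the filter on low counts.

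**Figure D3:**
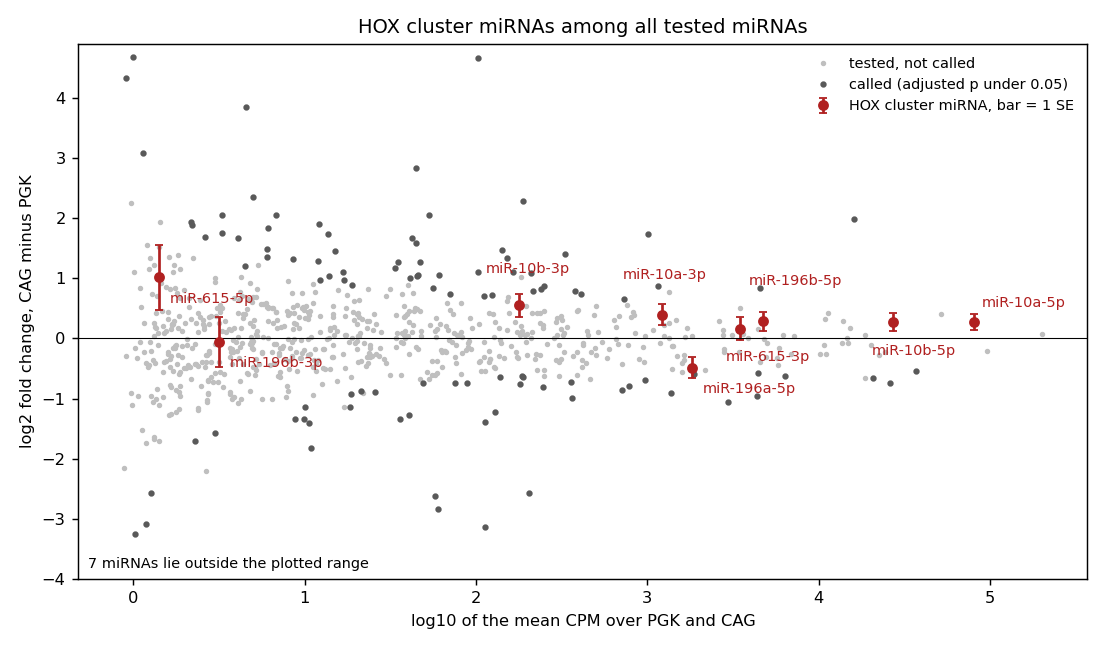
log2 fold change (CAG minus PGK) against the log10 of mean CPM for the tested miRNAs; grey points were not called, dark points were called, red points with 1 SE are the HOX cluster miRNAs, and 7 miRNAs lie outside the vertical range. The abundant members sit between −0.49 and 0.55 and none of the 9 was called.

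The calls depended on single CAG libraries. Without CAG replicate 2, miR-10a-5p passed the test with a log2 fold change of 0.34 (edgeR adjusted p = 0.0359), miR-10b-5p passed with 0.39 (edgeR adjusted p = 0.0287) and miR-196a-5p was called lower (−0.54; edgeR adjusted p = 0.0192), 3 of 9 members against 19.4% of all miRNAs tested in that fit. Without CAG replicate 1, miR-10b-3p was called higher (log2 fold change 0.70; edgeR adjusted p = 0.0273), 1 of 9 against 12.9%. Without PGK replicate 1 there were 0 of 9 against 2.29% of all miRNAs, and without PGK replicate 2 there were 0 of 9 against 1.89%, so few miRNAs of any kind were called in those fits. In fits with 1 library in a group, that library is assumed to vary like the other group's pair.

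The balance between HOX clusters was read from ratios of counts within a library, in which depth and scaling cancel. For the log2 ratios only, 0.5 reads were added to each count. The miR-10a-5p to miR-10b-5p ratio was 2.95 and 2.98 in PGK replicates 1 and 2 against 2.87 and 3.12 in CAG replicates 1 and 2, so the CAG values enclosed the PGK values. The mean log2 ratio was 1.57 ± 0.0089 in PGK and 1.58 ± 0.0855 in CAG cells (SD, n = 2; exact permutation p = 1.00, two-sided). With 2 libraries against 2, the smallest p this test can give is 0.333, so no ratio could pass. The HOXB and HOXD guides thus kept nearly the same proportion of counted reads in all 4 libraries. RefSeq gave no sequence for miR-10b-5p, and the rule for reads that match both guides was not given. How far that rule shaped this ratio was not tested.

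The proportion of the 2 miR-196 guides was lower for miR-196a-5p in both CAG libraries, in a comparison too small to pass the test. For every read of miR-196a-5p there were 2.17 and 1.89 reads of miR-196b-5p in PGK replicates 1 and 2, against 3.75 and 3.15 in CAG replicates 1 and 2. The log2 ratio of miR-196a-5p to miR-196b-5p was −1.02 ± 0.144 in PGK and −1.78 ± 0.177 in CAG cells (SD, n = 2), a difference of −0.77, with no overlap and the smallest exact permutation p the design allows (0.333). The difference exceeded the SD between replicates of either group and ran from −0.89 to −0.64 when each library was left out. The rule for reads that match both entries was among the steps not given in the sources used here.

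The 3p arms of miR-196a differ between its copies, unlike the shared guide, and are shown here because they give separate reads from HOXB and HOXC.
miR-196a-1-3p (HOXB, chr17:48632495-48632515, minus): cAACAACAuuaaaccacccga
miR-196a-3p (HOXC, chr12:53991799-53991820, plus): cGGCAACAagaaacugccugag

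miR-196a-1-3p had 51 and 31 reads in PGK replicates 1 and 2 against 30 and 10 in CAG replicates 1 and 2, which was 6.38, 4.32, 2.33 and 3.24 CPM. Its log2 fold change was −1.07 (SE 0.39; edgeR adjusted p = 0.0960), and its pooled ratio of CAG to PGK was 0.463 (95% exact binomial interval 0.309 to 0.684). That interval covers counting error only, not the spread between libraries. miR-196a-3p had 174, 165, 430 and 74 reads in the same order, or 21.8, 23.0, 33.4 and 24.0 CPM, a log2 fold change of 0.40 (SE 0.24; edgeR adjusted p = 0.308). Neither passed the test, and the HOXC passenger was the more abundant in all 4 libraries.

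The share of the HOXB copy among both kinds of 3p reads, a measure chosen after its values were seen, was 22.7% (95% Wilson interval 17.7 to 28.6) and 15.8% (11.4 to 21.6) in PGK replicates 1 and 2. It was 6.52% (4.61 to 9.16) and 11.9% (6.60 to 20.5) in CAG replicates 1 and 2. Both CAG values were below both PGK values, but the interval of CAG replicate 2 covered the value of PGK replicate 2. The log2 ratio of the 2 passengers differed by −1.25 between the groups (exact permutation p = 0.333, the smallest possible). It was −0.75 without CAG replicate 1 and −1.74 without CAG replicate 2.

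**Figure D4:**
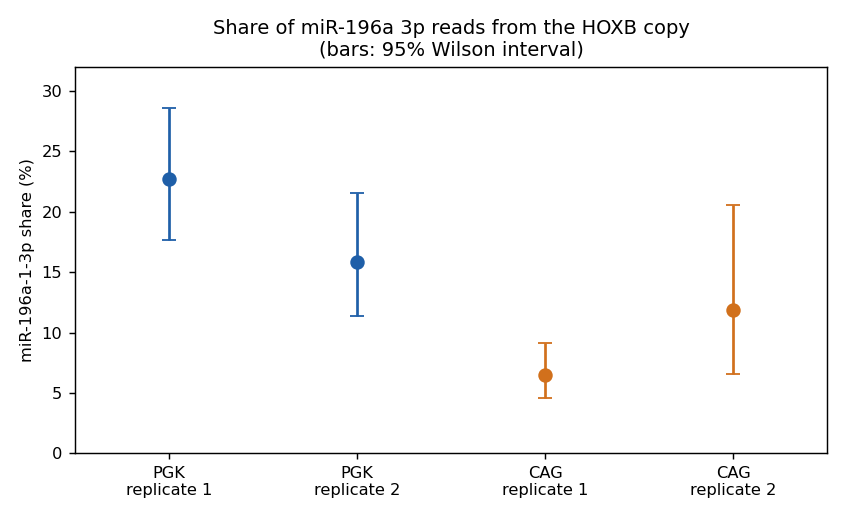
Share of miR-196a-1-3p (HOXB copy) among the reads of miR-196a-1-3p and miR-196a-3p (HOXC copy) in each library, in percent, with 95% Wilson intervals for counting error. The PGK libraries stand at 22.7% and 15.8% and the CAG libraries at 6.52% and 11.9%.

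Arm usage was strongly one-sided in each hairpin. The 5p arm held 98.3% to 98.6% of miR-10a reads, 99.2% to 99.5% of miR-10b reads and 99.91% to 99.95% of miR-196b reads, while in miR-615 the 3p arm held 99.95% to 99.98%. Among the 4 hairpins miR-615 was thus the only one whose guide was the 3p arm in these libraries. miR-10a had relatively more passenger reads than miR-10b: 56.5 to 72.6 guide reads per passenger read against 117 to 184, with no overlap over the 4 libraries. Ligation preference differs between arms, so these levels describe reads, not molecules.

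Between PGK and CAG cells the arm ratios of 3 hairpins overlapped. The log2 ratio of 5p to 3p reads was 6.11 ± 0.0076 in PGK and 6.0 ± 0.256 in CAG cells for miR-10a (SD, n = 2; exact permutation p = 1.00). It was 7.43 ± 0.141 and 7.14 ± 0.374 for miR-10b (exact permutation p = 0.667), and 10.42 ± 0.452 and 10.64 ± 0.371 for miR-196b (exact permutation p = 0.667). CAG replicate 2 had the lowest ratio of the 4 libraries in both miR-10 hairpins, 5.82 and 6.87. For miR-615 the ratio was −11.69 ± 0.522 in PGK and −10.84 ± 0.112 in CAG cells without overlap (exact permutation p = 0.333, the smallest possible), on 6 to 24 reads of the 5p arm per library. The ratio of the 2 miR-10 passengers, miR-10a-3p to miR-10b-3p, was 7.89 and 6.88 in PGK and 6.70 and 6.49 in CAG replicates 1 and 2, a log2 difference of −0.16.

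**Figure D5:**
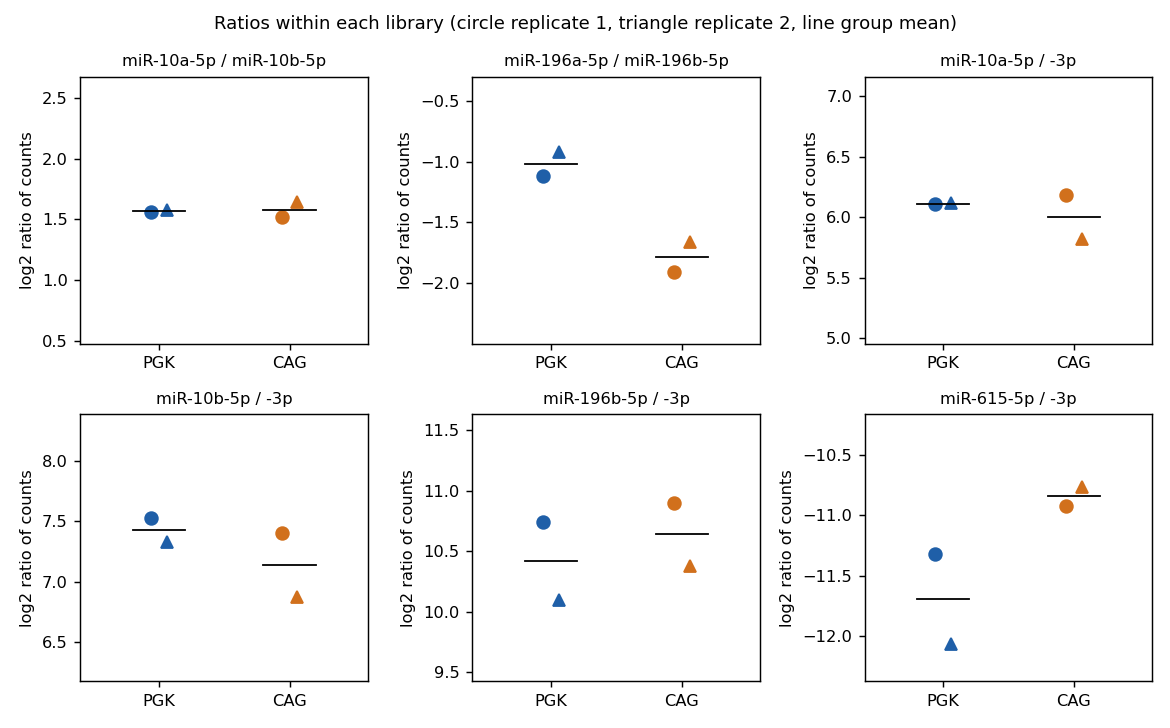
log2 ratio of counts within each library for the miR-10 and miR-196 guides of different clusters and for the 5p and 3p arms of each hairpin; circles are replicate 1, triangles replicate 2, lines group means, and each panel spans the same range of log2 units. The miR-196a-5p to miR-196b-5p ratio is lower in both CAG libraries, and the miR-10a-5p to miR-10b-5p ratio lies between 1.52 and 1.64 in all 4.

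Summed by seed, the table of families joined the paralogs again. The family ACCCUGU matched the sum of miR-10a-5p and miR-10b-5p within 1 read in each library, and ranked 3 among all families by total count, with 98999 ± 3967 CPM for PGK and 116880 ± 10485 CPM for CAG (SD, n = 2). miR-10a-5p supplied 74.2% to 75.7% of it. Its log2 fold change was 0.24 (SE 0.14; edgeR adjusted p = 0.301). The family AGGUAGU equalled the sum of miR-196a-5p and miR-196b-5p in each library, with 6459 ± 426 CPM for PGK and 6615 ± 336 CPM for CAG (SD, n = 2). Its log2 fold change of 0.03 (SE 0.15, edgeR adjusted p = 0.910) lay between those of its 2 members. The group means of the AGGUAGU family differed by less than the SD between replicates of either group. The other families of the members held 1 entry each and repeat its counts. None of the members' families was called with all libraries or in any of the 13 alternative fits, beside 10.4% of the 642 families tested.

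The miRNAs whose values over the 4 libraries most resembled a member were named by the distance between log2 CPM centred on its own mean, among 220 others with a mean of at least 100 CPM. For miR-10a-5p the nearest were miR-10b-5p (distance 0.0871), miR-196b-5p (0.103) and miR-18a-3p (0.104), against a median distance of 0.550. For miR-10b-5p they were miR-10a-5p, miR-374a-3p (0.0975) and miR-148a-5p (0.131). miR-196b-5p lay closest to miR-421 (0.0518), miR-3615 (0.0588) and let-7f-5p (0.0754), and miR-196a-5p to miR-92b-3p (0.126), miR-375-3p (0.157) and miR-140-3p (0.165). With 4 libraries this is a description only.

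Other entries of the HOX clusters were sparse. miR-7704, whose hairpin overlaps a coding exon of HOXD1, had 91, 46, 165 and 34 reads in PGK replicates 1 and 2 and CAG replicates 1 and 2, with a log2 fold change of 0.44 (SE 0.32; edgeR adjusted p = 0.391). miR-3185, near HOXB13, had 2 reads in CAG replicate 1 and 0 elsewhere.

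The miR-99 and miR-100 guides, encoded outside the HOX clusters, resemble miR-10 over most of their length and have another seed. miR-100-5p is shown because it aligned to miR-10a-5p with 20 identical bases, 2 mismatches and 1 gap.
miR-100-5p (chr11:122152275-122152296, minus): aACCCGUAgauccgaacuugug

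Of these 3 relatives, 2 were called higher in CAG cells. Among all 773 tested miRNAs 63 were called higher, and 14.2% were called in either direction. miR-99a-5p stood at 3189 and 3313 CPM for PGK and 6018 and 5577 CPM for CAG (log2 fold change 0.83, SE 0.16; edgeR adjusted p = 0.0051). miR-100-5p stood at 32.2 and 27.9 CPM for PGK and 61.0 and 63.5 CPM for CAG (log2 fold change 1.05, SE 0.21; edgeR adjusted p = 0.0074). miR-99b-5p had a log2 fold change of 0.33 (SE 0.15; edgeR adjusted p = 0.172). Without PGK replicate 1 or PGK replicate 2 neither was called (edgeR adjusted p up to 0.187), with log2 fold changes of 0.79 and 0.85 for miR-99a-5p and 1.14 and 0.94 for miR-100-5p. Calls over the whole table went from 110 to 19 and 16 in the same fits. Whether these changes differed from those of the miR-10 guides was not tested.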

How the data were processed

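Small RNA was measured in 4 HEK293T libraries. Per the labels' protocols, RNA came from Trizol extraction and libraries from the NEBNext Small RNA kit. The authors deposited whole-number counts per mature miRNA and per seed family, with 1 column per library; trimming, alignment and counting were steps not given in the sources used here. All columns belonged to labelled libraries. Replicates were not copies of the same reads (chi-square per degree of freedom 41.7 for PGK and 79.4 for CAG).

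The members, lists and tests were chosen with earlier results of these data known. Tests ran in R 4.3.3 with edgeR 4.0.16 (quasi-likelihood, robust, group alone, TMM) on all 773 miRNAs or 642 families passing the low-count filter (minimum count 10, minimum total 15), with Benjamini-Hochberg adjustment over all of them. SE is the fold change over the root of F. The test was checked on simulated data. Ratios within libraries used an exact two-sided permutation test (scipy 1.17.1). Alternatives were other scalings and filters, DESeq2 1.42.0, limma-voom (limma 3.58.1), the older quasi-likelihood method, a replicate block, each library left out, and a pseudocount of 2 reads. The text names all 9 members, other arms of their hairpins, other entries between HOX genes, miR-99 and miR-100 relatives, and the 3 nearest miRNAs for each of the 4 guides compared. Sequences are from RefSeq (GRCh38.p14).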

Additional observations from a re-analysis of the deposited data

How the results depend on the processing

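The 13 alternative fits left 0 members called, except that the fits leaving out a library gave 0 to 3. The number of miRNAs called over the whole table was 110 with all libraries, 63 with the replicate block and 16 to 162 when a library was left out. The sample titles link the PGK and CAG replicates by number only and name no batch. The differences between replicates 1 and 2 of the PGK and CAG pairs had a correlation of −0.0153 across 773 miRNAs. The block changed no call among the members. Fold changes when a library was left out ran from 0.22 to 0.34 for miR-10a-5p, 0.15 to 0.39 for miR-10b-5p, 0.41 to 0.70 for miR-10b-3p and −0.64 to −0.36 for miR-196a-5p. The sign of some uncalled fold changes turned. miR-196b-3p turned to 0.081 with the replicate block and ran from −0.38 to 0.34 when a library was left out, and its family CGACAGC turned to 0.048 and ran from −0.43 to 0.29. Leaving out a library gave −0.091 to 0.43 for miR-615-3p and −0.14 to 0.37 for its family CCGAGCC, both below 0 without PGK replicate 1. The family AGGUAGU turned to −0.000692 with upper-quartile factors and ran from −0.064 to 0.073 when a library was left out. The sign of 3 ratio differences that overlapped between groups also turned: miR-10a arms ran from −0.29 to 0.068, miR-196b arms from −0.10 to 0.54 and miR-10a-5p over miR-10b-5p from −0.046 to 0.074. The cause of these shifts was not tested. With a pseudocount of 2 reads every arm or paralog ratio difference moved by less than the pooled SD between replicates. miR-196b-3p, miR-615-5p and miR-196a-1-3p could not be tested under the filter of 10 CPM, and their low read numbers limit precision.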
